A study of Mus musculus with 28 samples.

Results

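The nucleolar ribosome biogenesis factors described here are 43 genes. They were chosen by the gene symbol that the array platform's annotation gives their probe sets. A gene was taken if its single symbol starts with Nop, Nol, Utp, Rrp or Rrs followed by a digit, a capital letter or a lower-case letter and then a digit. Symbols that start with Polr1 followed by a digit or any letter were taken too. Dkc1 and Fbl were added by name. The 43 genes are part of 17097 genes that had at least 1 probe set with a single symbol, and they have 85 such probe sets of the 45141 on the array. Each gene is represented by its brightest probe set, meaning the set of short oligonucleotides with the highest mean log2 intensity over the arrays analysed.

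Ribosomes are built in the nucleolus. RNA polymerase I transcribes the long precursor of the ribosomal RNAs, small nucleolar ribonucleoproteins (snoRNPs) guide its chemical modification, and assembly factors cut the precursor and fold it into the small and the large subunit. Resting T cells are small cells that make little protein, and antigen receptor stimulation is followed by cell growth, for which new ribosomes are made. By textbook role the 43 genes comprise 5 subunits of RNA polymerase I, 6 snoRNP proteins with their chaperone, 17 factors of the small-subunit processome and its products, and 12 factors of the large subunit and of late processing. Another 3 genes, Nol3, Nol4 and Nol4l, carry a nucleolar name but have no established role in this pathway. Nol3, for example, is known as an inhibitor of apoptosis.

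RNA came from total CD4+ T cells of the spleen of 12-week-old female mice of 3 strains. These were C57BL/6, the B6.Sle1b strain, and the strain labelled Sle1b.BACSlamf6-H1, written Sle1b.BAC below. By its name, B6.Sle1b carries the lupus susceptibility interval Sle1b on the C57BL/6 background and Sle1b.BAC carries in addition a bacterial artificial chromosome with the Slamf6-H1 isoform. The labels give neither the site nor the copy number of that transgene. Cells were left unstimulated or were activated in complete RPMI medium for 4 h or 24 h with plate-bound antibody to CD3, clone 145-2C11, at 0.1 µg/ml. The labels name no second stimulus and give no culture time for the unstimulated cells, so activation and time in culture cannot be told apart. Strain and time give 9 groups. In all, 8 groups hold 3 arrays titled biological, and C57BL/6 at 24 h holds 2, giving 26 arrays. The labels do not say that replicates came from separate animals, so the p-values measure the spread between these arrays, which may be partly technical.

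Values are log2 of the deposited intensity, so a difference of 1 is a 2-fold difference. A gene was called changed where limma's test, adjusted by Benjamini and Hochberg over all 17097 genes, gave a p below 0.05. The 75th percentile of intensity ranged from 34.2 to 53.3 between arrays, and the dimmest were 34.2, 34.8, 35.6 and 35.6. The first 3 of these, called the 3 dim arrays below, are the second of Sle1b.BAC at 4 h, the second of unstimulated C57BL/6 and the third of unstimulated B6.Sle1b. The third array of B6.Sle1b at 24 h was equally dim, and values without all 4 are given beside those without the 3 where a call changed. An array's background was taken as the 95th percentile of its 23 nonspecific control probe sets, which lay between 2.76 and 3.21 on the log2 scale. All 9 markers of CD4+ T cells were above background in all 9 groups, with a mean log2 level of 8.87 to 9.35 over the arrays, while the 9 B cell markers averaged 4.10 to 4.96. Pax5, C1qa, C1qb and Klra8, which define B cells, macrophages and natural killer cells, were not above background in any group. Other markers of those cells were above it in all 9 groups, namely 6 of the 9 B cell markers, 4 of the 9 of monocytes and macrophages, and 3 of the 5 of natural killer cells. Cd4 itself had the lowest mean of the 9 CD4+ T cell markers, 5.81. Cd8b1, a marker of CD8 T cells, averaged 5.14 and S100a8, a marker of neutrophils, 6.04, both above background in all 9 groups.

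At 24 h of activation 26 of the 43 nucleolar factors were called higher in all 3 strains, as were 12.1% of all genes. The 1 member called lower in all 3 was Nop53, as were 7.63% of all genes. At 4 h, 4 were called higher in all 3 strains, as were 1.8% of all genes. Among the 26 are Nol7, Rrp7a and Utp11. For these another probe set was called lower at 24 h as the mean of the strains. Dkc1, the pseudouridine synthase of the box H/ACA snoRNPs, and Fbl, the methyltransferase of the box C/D snoRNPs, show the course in every array. Dkc1 in unstimulated cells measured 7.65, 7.72 and 7.85 in C57BL/6, 7.99, 7.85 and 7.63 in B6.Sle1b, and 7.73, 7.84 and 7.70 in Sle1b.BAC. After 4 h it measured 8.51, 8.81 and 8.55 in C57BL/6, 8.57, 8.65 and 8.53 in B6.Sle1b, and 8.69, 8.53 and 8.66 in Sle1b.BAC. After 24 h it measured 10.27 and 10.17 in C57BL/6, 10.12, 9.95 and 9.98 in B6.Sle1b, and 10.16, 10.14 and 10.12 in Sle1b.BAC. The 3 times do not overlap in any strain. Averaged over the strains, Dkc1 rose by 0.84 on the log2 scale at 4 h (SE 0.060, adjusted p = 5.79e-10) and by 2.35 at 24 h (SE 0.062, adjusted p = 1.16e-17), which is a 5.11-fold rise.

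Fbl was called at 24 h and not at 4 h. Its unstimulated log2 levels were 9.44, 9.21 and 9.36 in C57BL/6, 9.60, 9.34 and 9.26 in B6.Sle1b, and 9.42, 9.41 and 9.25 in Sle1b.BAC. At 4 h the levels were 9.54, 9.75 and 9.19 in C57BL/6, 9.48, 9.63 and 9.30 in B6.Sle1b, and 9.33, 9.24 and 9.31 in Sle1b.BAC, which overlap the unstimulated values in all 3 strains. At 24 h they were 10.78 and 10.73 in C57BL/6, 10.86, 10.82 and 10.76 in B6.Sle1b, and 10.85, 10.80 and 10.84 in Sle1b.BAC, above all earlier arrays. The mean difference of Fbl was 0.05 at 4 h (SE 0.072, adjusted p = 0.718) and 1.43 at 24 h (SE 0.075, adjusted p = 4.19e-13), a 2.70-fold rise. Dkc1 therefore passed the test at both times and Fbl at 24 h alone; the difference between the genes was not tested.

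**Figure D1:**
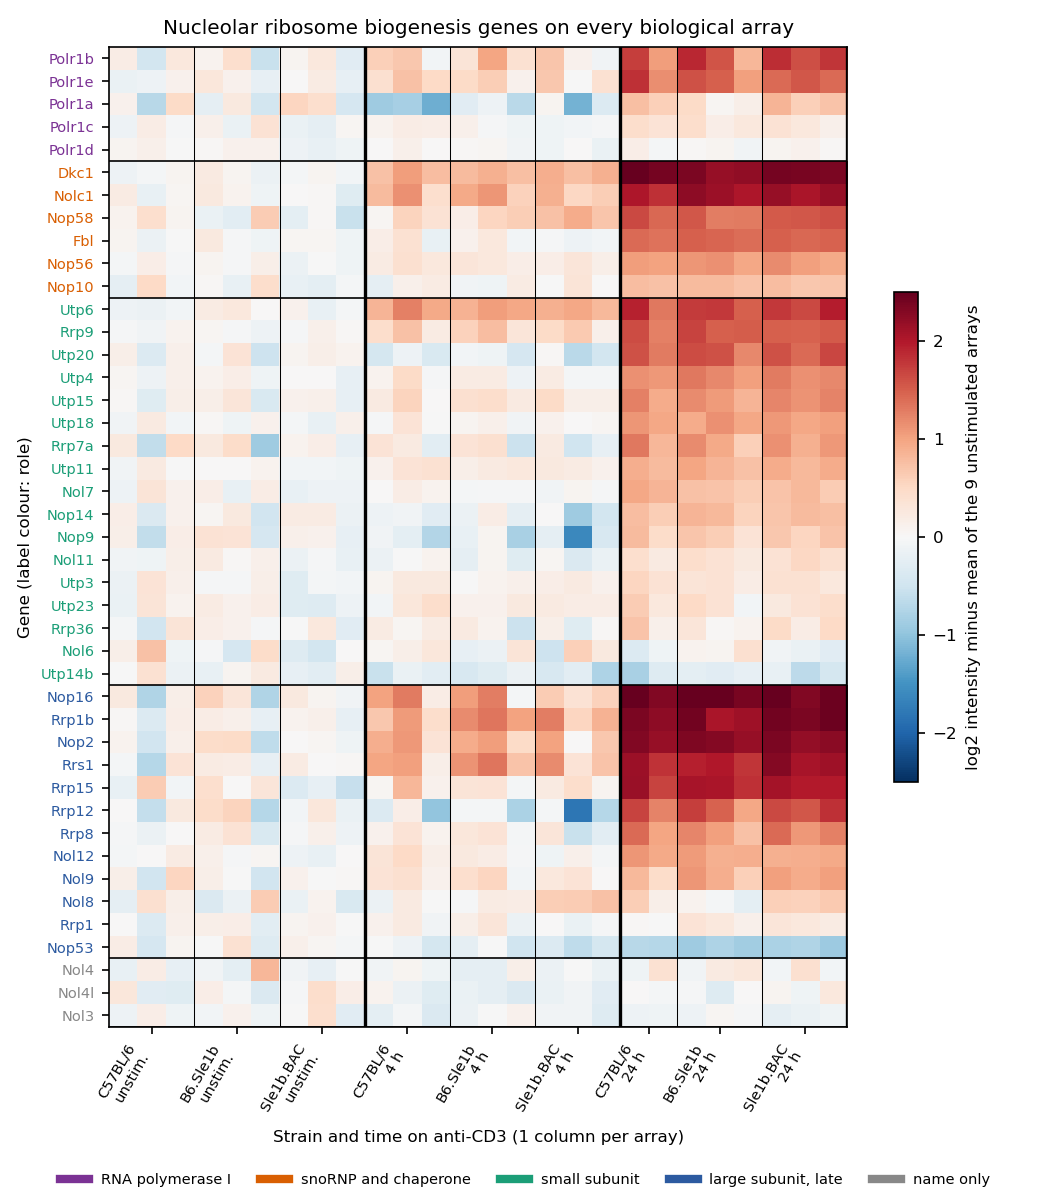
Log2 intensity of the 43 nucleolar factors (vertical) on the 26 arrays (horizontal, by time and strain), each minus the gene's mean over the 9 unstimulated arrays, with white at 0 and the label colour giving the role. Most rows turn to higher values on the 8 arrays of 24 h, while at 4 h a few rows such as Dkc1, Utp6 and Rrp1b stand out.

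Promoter sequence was looked up because 26 members rose in all 3 strains at 24 h. RefSeq windows on GRCm38.p6, from 250 bases before to 50 after the annotated start, were at hand for 33 of the 43 genes, in 38 windows. The windows of 4 genes that rose strongly at 24 h (Dkc1, Nolc1, Nop16 and Nop2) and of 1 that fell (Utp14b) are shown on the gene's own strand. These genes were picked by name and not by rank. Capitals mark CACGTG, and they also mark the variant CACGCG on either strand. CACGTG, its own reverse complement, spells the E-box bound by MYC and other factors of its class. The windows are chrX:75095604-75095903 on the plus strand for Dkc1, chr19:46075597-46075896 on the plus strand for Nolc1, chr13:54590025-54590324 on the minus strand for Nop16, chr6:125131633-125131932 on the plus strand for Nop2, and chr1:78658190-78658489 on the plus strand for Utp14b.
Dkc1: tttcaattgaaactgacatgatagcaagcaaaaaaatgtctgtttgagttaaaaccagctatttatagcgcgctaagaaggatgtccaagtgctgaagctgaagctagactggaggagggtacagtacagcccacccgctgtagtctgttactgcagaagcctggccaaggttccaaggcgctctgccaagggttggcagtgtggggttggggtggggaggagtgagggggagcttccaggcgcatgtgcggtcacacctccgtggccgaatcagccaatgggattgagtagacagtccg
Nolc1: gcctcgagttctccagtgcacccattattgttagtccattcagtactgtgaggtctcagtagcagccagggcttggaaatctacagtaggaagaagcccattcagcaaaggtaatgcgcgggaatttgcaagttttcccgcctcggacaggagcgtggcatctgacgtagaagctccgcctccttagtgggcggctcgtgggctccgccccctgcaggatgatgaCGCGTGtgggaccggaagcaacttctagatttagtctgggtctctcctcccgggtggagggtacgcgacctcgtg
Nop16: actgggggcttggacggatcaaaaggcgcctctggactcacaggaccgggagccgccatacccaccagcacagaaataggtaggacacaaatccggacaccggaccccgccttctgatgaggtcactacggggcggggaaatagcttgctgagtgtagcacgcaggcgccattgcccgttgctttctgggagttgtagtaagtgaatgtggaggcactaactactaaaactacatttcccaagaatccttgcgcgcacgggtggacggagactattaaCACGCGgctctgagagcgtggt
Nop2: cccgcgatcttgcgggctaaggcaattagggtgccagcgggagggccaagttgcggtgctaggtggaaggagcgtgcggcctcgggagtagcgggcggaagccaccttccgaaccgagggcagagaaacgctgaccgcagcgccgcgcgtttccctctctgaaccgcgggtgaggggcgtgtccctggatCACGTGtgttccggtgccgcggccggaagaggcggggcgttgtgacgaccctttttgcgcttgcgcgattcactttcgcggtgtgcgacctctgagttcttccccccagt
Utp14b: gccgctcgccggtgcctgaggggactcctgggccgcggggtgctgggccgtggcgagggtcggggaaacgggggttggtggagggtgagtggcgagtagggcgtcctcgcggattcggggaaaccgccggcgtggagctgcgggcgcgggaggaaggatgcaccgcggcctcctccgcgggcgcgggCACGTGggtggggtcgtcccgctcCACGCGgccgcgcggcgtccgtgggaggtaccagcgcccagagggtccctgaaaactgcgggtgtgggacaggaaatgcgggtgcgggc
The capitals show CACGTG starting 60 bases before the start of Nop2 and 63 bases before that of Utp14b, CGCGTG 25 bases before the start of Nolc1, and CACGCG at base 29 of the Nop16 transcript. Utp14b, which fell, also holds CACGCG 39 bases before its start, and the Dkc1 window holds neither. Rrp1b, whose window is not shown, rose by 2.30 at 24 h, more than Nop2 and Nolc1. Its window also holds neither. Over the 33 members, 7 windows held CACGTG (21.2%, Wilson 95% interval 10.7 to 37.8), against 8.09% of 27025 genes with a window and 10.2% of the 13514 of them tested here. CACGCG or CGCGTG was in 11 (33.3%, interval 19.8 to 50.4), against 10.5% and 16.2%. Of these 11 windows, 5 hold it before the start, or 15.2% of the members. CACGTG was before the start in 5 members too, also 15.2%. Shares of all genes before the start are not given here, so 15.2% cannot be set beside the shares of whole windows. The GC-box letters GGGCGG or CCGCCC were in 24 (72.7%, interval 55.8 to 84.9), against 38.2% and 57.4%, and the ETS-type letters CCGGAAG or CTTCCGG in 11 (33.3%), against 9.93% and 15.1%. CCAAT or ATTGG was in 33.3% of the members against 42.3% of the tested genes, and TATAAA or TTTATA in 12.1% against 11.8%. A match describes the letters of the window and does not show binding.

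Myc, which encodes a transcription factor known to act on ribosome biogenesis genes and is not one of the 43, rose by 2.26 at 4 h (SE 0.14, adjusted p = 1.05e-10) and by 2.84 at 24 h (SE 0.15, adjusted p = 5.83e-13), as the mean of the strains. Its log2 levels ran from 6.73 to 7.85 unstimulated, from 8.72 to 10.003 at 4 h and from 9.98 to 10.30 at 24 h.

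The first comparison sets 4 h of activation against unstimulated cells. In C57BL/6, 5 of the 43 factors rose (Dkc1, Nolc1, Rrp1b, Rrs1 and Utp6) and 0 fell, where 4.08% of all genes rose and 2.97% fell. In B6.Sle1b 6 were higher, the same 5 and Rrp9, and 0 lower, against 2.57% and 3.12% of all genes. In Sle1b.BAC 6 were higher (Dkc1, Nol8, Nolc1, Nop58, Rrp1b and Utp6) and 0 lower, against 4.22% and 6.35%. The 4 genes called higher in all 3 strains were Dkc1, Nolc1, Rrp1b and Utp6, a step met by 1.8% of all genes, and 35 members were called higher in none. The single-strain counts of 4 h depend on the processing. They ran from 2 to 14 in C57BL/6, with 8 when a replicate block within each strain was added after the data were seen. The count was 15 in Sle1b.BAC when the arrays were quantile normalized again. The count over all 17097 genes moved as well. In C57BL/6 it was 697 in the main fit, 955 after a further quantile normalization and 1521 with array brightness in the model. In Sle1b.BAC it was 722 in the main fit and 1034 after that normalization.

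Averaging the 3 strains gives the more precise estimate, and it is used for single genes below. By it 13 members rose and 3 fell at 4 h, where 8.15% of all genes rose and 10.1% fell, and 27 were not called. The median member differed by 0.09 on the log2 scale, against 0.02 for all genes, with members from -0.61 to 0.96. Besides the 4 named above, those that rose were Rrs1 by 0.84, Nop2 by 0.72, Nop16 by 0.71, Nop58 by 0.52, Rrp9 by 0.47, Polr1e by 0.43, Utp15 by 0.29, Nop56 by 0.25 and Utp11 by 0.22. Polr1a, Utp14b and Nop53 fell. The number of members that fell at 4 h was 8 without the 3 dim arrays, 8 without the 4 dimmest and 5 with a replicate block within each strain, all alternatives chosen after the data were seen. It lay between 2 and 6 when single arrays were left out. The call of Utp15 had an adjusted p of 0.0486 and was lost in 22 of the alternatives, and that of Nop53 in 10. The call of Utp11 was lost with the mean of all its probe sets (adjusted p = 0.86).

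At 24 h against unstimulated cells, 27 members were called higher and 2 lower in C57BL/6, against 15.7% and 8.6% of all genes. In B6.Sle1b the counts were 27 and 1, against 14.8% and 13.4%, and in Sle1b.BAC they were 32 and 1, against 17.2% and 11.9%. The members' median difference was 0.97 for C57BL/6, 0.93 for B6.Sle1b and 1.01 for Sle1b.BAC, where all genes had medians of 0.04, 0.07 and 0.06. The members called higher in all 3 strains were 26, a step met by 12.1% of all genes. As the mean of the strains 35 members rose and 2 fell, where 22.9% of all genes rose and 17.4% fell, and the median member differed by 0.96 against 0.06 for all genes. The members ran from -0.79 for Nop53 to 2.52 for Nop16, a 5.72-fold rise. Bulk RNA does not separate more RNA per cell from more cells of a kind, and arrays scaled to each other show change relative to the other genes on the array.

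Between 4 h and 24 h, 27 members rose and 0 fell in C57BL/6, against 12% and 6.67% of all genes. The count that rose was 16 without the first of the 2 C57BL/6 arrays of 24 h. In B6.Sle1b 27 rose and 1 fell, against 13.1% and 11.1%, and in Sle1b.BAC 30 rose and 0 fell, against 16.9% and 7.82%. As the mean of the strains 32 rose and 1, Nop53, fell, against 20.5% and 14.1%, with a median of 0.81 against 0.02 for all genes. The comparisons share arrays, so they are not independent of each other. Erythroid markers moved with time too. The summed intensity of 3 such genes was 841 to 3815 on unstimulated arrays and 193 to 1770 at 24 h, and 2 of the 3 were called lower as the mean of the strains. The summed intensity of the 9 CD4+ T cell markers was 8098 to 9095 on unstimulated arrays and 6343 to 7888 at 24 h. Of 5 natural killer cell markers, 1 was called higher and 1 lower. Their summed intensity was 152 to 277 on unstimulated arrays and 520 to 775 at 24 h, without overlap. That sum is mostly Eomes and Gzma, with group mean log2 levels of 6.49 to 8.84 and 6.41 to 7.81. Ncr1, Klra8 and Klrb1c reached group means of at most 3.15, 2.47 and 3.89, so the sum says little of them. The summed intensity of 2 CD8 T cell markers was 41.7 to 58.6 on unstimulated arrays and 33.8 to 42.8 at 24 h. The part of these shifts in the members' rise was not tested.

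**Figure D2:**
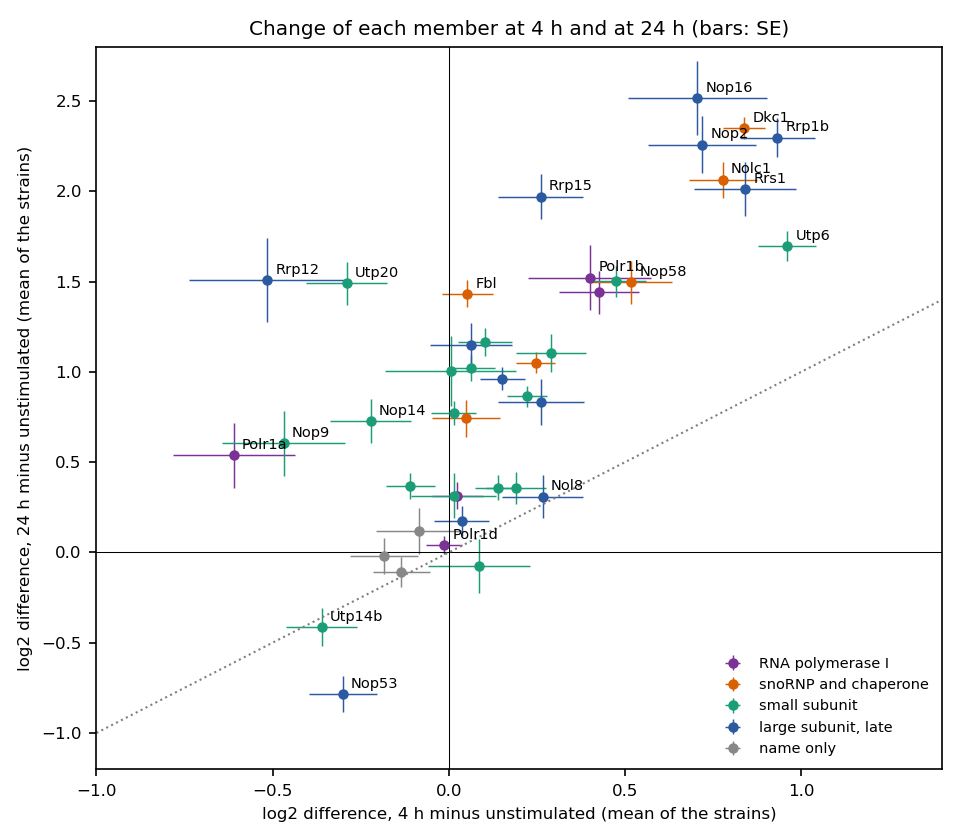
Mean log2 difference of each of the 43 factors from unstimulated cells at 4 h (horizontal) and at 24 h (vertical), over the 3 strains, with bars of 1 SE and a dotted line of equal differences, coloured by role. Most points lie above the line of equality, with Utp6, Rrp1b, Rrs1 and Dkc1 farthest right and Nop53 and Utp14b below 0 on both axes.

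The members are taken by role from here, and their counts stand beside the shares of all genes given above for the mean of the strains, which are 8.15% higher and 10.1% lower at 4 h and 22.9% higher and 17.4% lower at 24 h. Among the 5 RNA polymerase I subunits, 1 rose and 1 fell at 4 h, and 4 rose at 24 h with a median of 0.54. Polr1b, the second-largest subunit and part of the catalytic core, had the largest rise of the 5 at 24 h. Its unstimulated levels were 4.39, 3.73 and 4.47 in C57BL/6, 4.29, 4.62 and 3.63 in B6.Sle1b, and 4.27, 4.46 and 3.91 in Sle1b.BAC. At 4 h they were 4.79, 4.87 and 4.13 in C57BL/6, 4.52, 5.19 and 4.57 in B6.Sle1b, and 4.89, 4.31 and 4.11 in Sle1b.BAC. At 24 h they reached 5.93 and 5.24 in C57BL/6, 6.07, 5.77 and 5.04 in B6.Sle1b, and 6.04, 5.80 and 5.99 in Sle1b.BAC. The 24 h arrays lie above the unstimulated ones in every strain, while the 4 h arrays overlap them. The mean difference was 0.40 at 4 h (SE 0.17, adjusted p = 0.132) and 1.52 at 24 h (SE 0.18, adjusted p = 2.88e-07).

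Polr1a, which encodes the largest subunit with the active site, was called lower at 4 h and higher at 24 h as the mean of the strains. It measured 6.19, 5.40 and 6.55 in C57BL/6, 5.85, 6.32 and 5.62 in B6.Sle1b, and 6.62, 6.51 and 5.66 in Sle1b.BAC unstimulated. It measured 5.20, 5.25 and 4.85 in C57BL/6, 5.80, 5.95 and 5.40 in B6.Sle1b, and 6.15, 4.90 and 5.74 in Sle1b.BAC at 4 h. At 24 h the values were 6.83 and 6.68 in C57BL/6, 6.55, 6.14 and 6.22 in B6.Sle1b, and 6.93, 6.68 and 6.79 in Sle1b.BAC. The 4 h arrays lie below the unstimulated ones without overlap in C57BL/6 alone, and the 24 h arrays lie above the 4 h arrays in all 3 strains. Polr1a fell by 0.61 at 4 h (SE 0.17, adjusted p = 0.0147), rose by 0.54 at 24 h (SE 0.18, adjusted p = 0.0195, and 0.0536 without the first C57BL/6 array of 24 h) and rose by 1.15 between the times (adjusted p = 1.61e-05). In single strains Polr1a was called at neither time against unstimulated cells, and between the times it was called higher in 2 strains. Of its 2 other probe sets above background, 1 had the same call in each of these 3 comparisons and 0 the opposite one.

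Polr1e, known in human cells as a polymerase-associated factor that pairs with the subunit Twistnb, measured 5.19, 5.21 and 5.45 in C57BL/6, 5.63, 5.46 and 5.13 in B6.Sle1b, and 5.36, 5.55 and 5.15 in Sle1b.BAC without stimulation. Its levels were 5.75, 6.07 and 5.84 in C57BL/6, 5.82, 5.95 and 5.46 in B6.Sle1b, and 6.02, 5.34 and 5.72 in Sle1b.BAC at 4 h. The 24 h values were 7.17 and 6.51 in C57BL/6, 6.94, 6.84 and 6.37 in B6.Sle1b, and 6.76, 6.90 and 6.76 in Sle1b.BAC. The 4 h arrays lie above the unstimulated ones in C57BL/6 and overlap them in the other strains, and the 24 h arrays lie above both. The 4 h rise of 0.43 (SE 0.11, adjusted p = 0.00937) was the largest of the 5 Polr1 members at that time, and at 24 h the rise was 1.44 (SE 0.12, adjusted p = 8.05e-10). Polr1c, which RNA polymerase III shares, rose by 0.31 at 24 h.

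Polr1d, also shared with RNA polymerase III, stayed between 10.26 and 10.61. Its unstimulated levels were 10.52, 10.57 and 10.43 in C57BL/6, 10.48, 10.55 and 10.55 in B6.Sle1b, and 10.31, 10.26 and 10.34 in Sle1b.BAC. At 4 h they were 10.46, 10.58 and 10.46 in C57BL/6, 10.47, 10.50 and 10.36 in B6.Sle1b, and 10.34, 10.46 and 10.27 in Sle1b.BAC. At 24 h they were 10.61 and 10.39 in C57BL/6, 10.48, 10.51 and 10.36 in B6.Sle1b, and 10.50, 10.55 and 10.47 in Sle1b.BAC. The times overlap in C57BL/6 and B6.Sle1b, while in Sle1b.BAC the 24 h arrays lie above the earlier ones. Polr1d was called in no comparison, with 0.04 at 24 h (SE 0.052, adjusted p = 0.596). A second, dimmer Polr1d probe set rose by 0.96 at 24 h (adjusted p = 1.42e-09), so the Polr1d result depends on the probe set.

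Of the snoRNP proteins and their chaperone, 4 of 6 rose at 4 h and 6 of 6 rose at 24 h, where 8.15% and 22.9% of all genes rose, with a median of 1.46 at 24 h and differences from 0.74 to 2.35. Nolc1, a phosphoprotein that chaperones snoRNPs, measured 7.48, 7.09 and 7.33 in C57BL/6, 7.52, 7.36 and 7.16 in B6.Sle1b, and 7.29, 7.30 and 6.97 in Sle1b.BAC in unstimulated cells. It reached 8.06, 8.42 and 7.70 in C57BL/6, 8.22, 8.37 and 7.86 in B6.Sle1b, and 8.17, 7.80 and 7.89 in Sle1b.BAC at 4 h. By 24 h it measured 9.30 and 9.11 in C57BL/6, 9.52, 9.42 and 9.31 in B6.Sle1b, and 9.45, 9.31 and 9.46 in Sle1b.BAC. The 3 times do not overlap in any strain. Nolc1 rose by 0.78 at 4 h (SE 0.096, adjusted p = 2.49e-06) and by 2.06 at 24 h (SE 0.10, adjusted p = 1.4e-13). Of its 2 other probe sets 1 was called higher at 4 h. With the mean of all its probe sets the 4 h call was lost in C57BL/6 (limma adjusted p = 0.137) and in Sle1b.BAC (0.211). Nop56 and Nop58, the core proteins that hold Fbl in the box C/D particle, rose by 1.05 and 1.50 at 24 h.

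Nop10, a small core protein of the box H/ACA particle, moved least of the 6. Unstimulated levels were 10.62, 11.33 and 10.76 in C57BL/6, 10.86, 10.64 and 11.28 in B6.Sle1b, and 10.64, 10.58 and 10.78 in Sle1b.BAC. They were 10.62, 10.97 and 11.03 in C57BL/6, 10.75, 10.72 and 11.03 in B6.Sle1b, and 10.82, 11.15 and 10.84 in Sle1b.BAC at 4 h. Arrays of 24 h read 11.60 and 11.57 in C57BL/6, 11.62, 11.63 and 11.54 in B6.Sle1b, and 11.60, 11.52 and 11.53 in Sle1b.BAC. The bright unstimulated values of 11.33 and 11.28 belong to 2 of the dim arrays, and all 24 h arrays lie above them. Nop10 differed by 0.05 at 4 h (SE 0.097, adjusted p = 0.821) and rose by 0.74 at 24 h (SE 0.10, adjusted p = 1.86e-06).

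**Figure D3:**
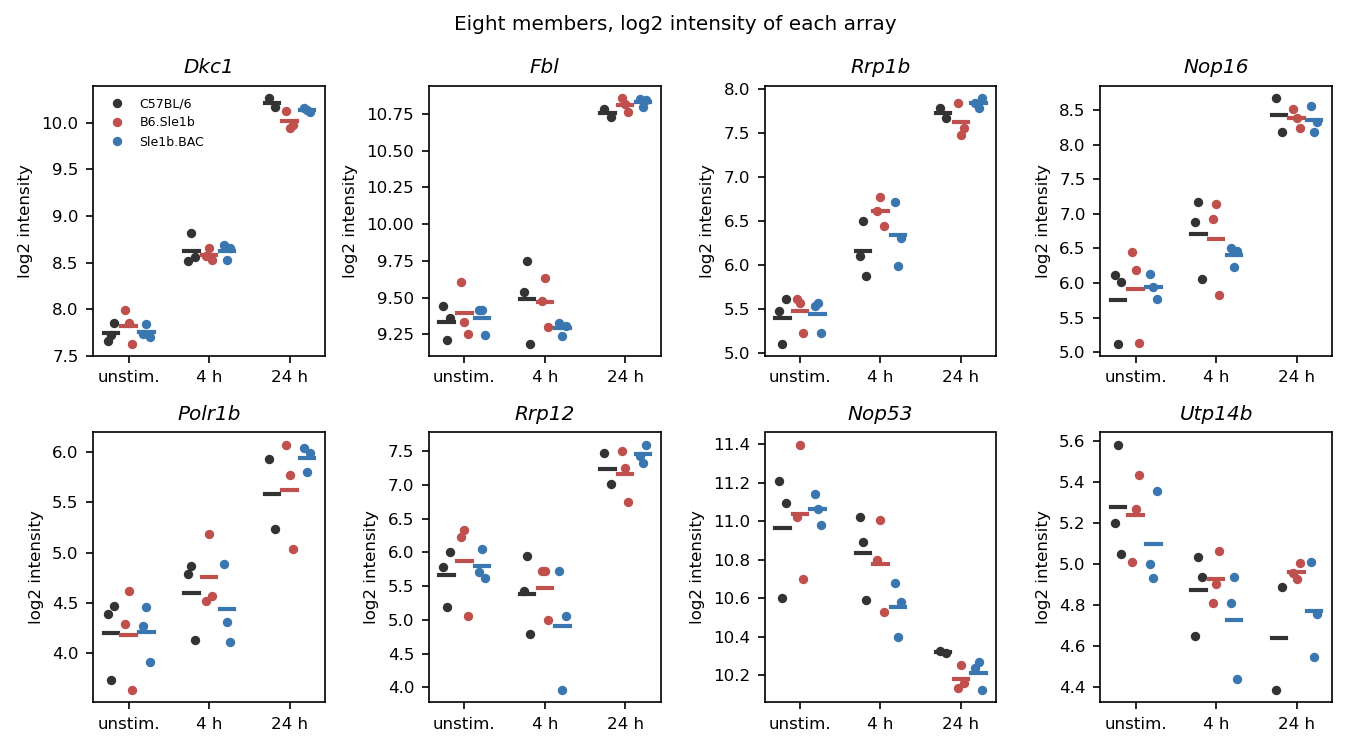
Log2 intensity on each of the 26 arrays for Dkc1, Fbl, Rrp1b, Nop16, Polr1b, Rrp12, Nop53 and Utp14b, by time and strain, with a short horizontal line at each group mean. The vertical axes differ between panels and do not start at 0. Dkc1 and Rrp1b climb at both steps, Fbl climbs after 4 h, and Nop53 and Utp14b go down.

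Of the 17 small-subunit factors, 4 rose and 1 fell at 4 h (8.15% and 10.1% of all genes), and 15 rose and 1 fell at 24 h (22.9% and 17.4%), with a median of 0.77. Utp6, a protein of the processome that assembles on the nascent precursor, was the member with the largest rise at 4 h. It measured 5.81, 5.78 and 5.85 in C57BL/6, 6.13, 6.20 and 5.94 in B6.Sle1b, and 6.03, 5.75 and 5.87 in Sle1b.BAC unstimulated. At 4 h it measured 6.79, 7.20 and 6.88 in C57BL/6, 6.80, 6.98 and 6.90 in B6.Sle1b, and 6.83, 6.89 and 6.74 in Sle1b.BAC, above every unstimulated array. At 24 h Utp6 measured 7.86 and 7.25 in C57BL/6, 7.69, 7.71 and 7.42 in B6.Sle1b, and 7.70, 7.58 and 7.89 in Sle1b.BAC. The rise was 0.96 at 4 h (SE 0.081, adjusted p = 8.78e-09) and 1.70 at 24 h (SE 0.085, adjusted p = 2.05e-13). The other Utp6 probe sets gave 0.16 and 0.22 at 4 h, not called, and rises of 0.75 and 1.29 at 24 h, so its early step rests on the brightest probe set.

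Other small-subunit factors rose at 24 h as well. Rrp9, a protein of the U3 snoRNP, rose by 1.50 at 24 h, and Utp20, a large scaffold protein, by 1.49. Nop9, which in yeast binds the precursor of the small-subunit RNA, measured 6.84, 6.08 and 6.85 in C57BL/6, 7.04, 7.03 and 6.26 in B6.Sle1b, and 6.81, 6.79 and 6.48 in Sle1b.BAC unstimulated. Its levels were 6.60, 6.44 and 5.95 in C57BL/6, 6.50, 6.75 and 5.88 in B6.Sle1b, and 6.46, 5.08 and 6.29 in Sle1b.BAC at 4 h. At 24 h it stood at 7.47 and 7.15 in C57BL/6, 7.38, 7.29 and 7.02 in B6.Sle1b, and 7.35, 7.23 and 7.40 in Sle1b.BAC. The lowest 4 h value, 5.08, is on the dim Sle1b.BAC array, and the 24 h arrays lie above the 4 h arrays in every strain. Nop9 differed by -0.47 at 4 h (SE 0.17, adjusted p = 0.0699), rose by 0.60 at 24 h (SE 0.18, adjusted p = 0.00972) and rose by 1.07 between the times (adjusted p = 4.32e-05). The remaining small-subunit members that rose at 24 h did so by 0.32 (Rrp36, adjusted p = 0.0482, lost in 23 alternatives) to 1.17 (Utp4), and Nol6 was called in no comparison.

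Utp14b, the retrogene copy of a processome gene that is known in mice for its part in sperm formation, fell. It measured 5.20, 5.58 and 5.05 in C57BL/6, 5.01, 5.27 and 5.44 in B6.Sle1b, and 5.002, 4.93 and 5.36 in Sle1b.BAC unstimulated. Its levels were 4.65, 5.04 and 4.94 in C57BL/6, 4.81, 4.90 and 5.07 in B6.Sle1b, and 4.81, 4.94 and 4.44 in Sle1b.BAC at 4 h. At 24 h the values were 4.39 and 4.89 in C57BL/6, 4.96, 4.93 and 5.01 in B6.Sle1b, and 5.01, 4.55 and 4.76 in Sle1b.BAC. The activated and unstimulated arrays do not overlap in C57BL/6 at either time or in B6.Sle1b at 24 h, and they overlap in the other comparisons. Utp14b fell by 0.36 at 4 h (SE 0.10, adjusted p = 0.014) and by 0.41 at 24 h (SE 0.11, adjusted p = 0.00273), and in single strains it was called in C57BL/6 at 24 h. Neither fall was called when the arrays were quantile normalized again, with adjusted p = 0.233 at 4 h and 0.176 at 24 h.

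Of the 12 large-subunit and late-processing factors, 4 rose and 1 fell at 4 h (8.15% and 10.1% of all genes), and 10 rose and 1 fell at 24 h (22.9% and 17.4%), with a median of 1.33. Nop16, known from yeast as an assembly factor of the large subunit, had the largest rise of all 43 genes at 24 h. Its unstimulated levels were 6.11, 5.12 and 6.02 in C57BL/6, 6.45, 6.18 and 5.13 in B6.Sle1b, and 6.13, 5.94 and 5.78 in Sle1b.BAC. It measured 6.88, 7.18 and 6.06 in C57BL/6, 6.92, 7.15 and 5.83 in B6.Sle1b, and 6.51, 6.24 and 6.46 in Sle1b.BAC at 4 h. The 24 h values were 8.67 and 8.18 in C57BL/6, 8.52, 8.39 and 8.24 in B6.Sle1b, and 8.56, 8.18 and 8.33 in Sle1b.BAC. The lowest unstimulated values, 5.12 and 5.13, are on dim arrays, and the 24 h arrays lie above all others. Nop16 rose by 0.71 at 4 h (SE 0.20, adjusted p = 0.0136) and by 2.52 at 24 h (SE 0.21, adjusted p = 7.46e-10). Its other probe set was called higher at 24 h and was not called at 4 h.

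Rrp1b, a paralog of the large-subunit factor Rrp1, rose early. Unstimulated arrays gave 5.47, 5.10 and 5.61 in C57BL/6, 5.61, 5.57 and 5.23 in B6.Sle1b, and 5.53, 5.57 and 5.23 in Sle1b.BAC. Arrays of 4 h gave 6.10, 6.50 and 5.87 in C57BL/6, 6.61, 6.77 and 6.44 in B6.Sle1b, and 6.71, 5.98 and 6.31 in Sle1b.BAC. Those of 24 h gave 7.79 and 7.67 in C57BL/6, 7.85, 7.47 and 7.56 in B6.Sle1b, and 7.84, 7.79 and 7.90 in Sle1b.BAC. No strain shows an overlap between times. The rise was 0.93 at 4 h (SE 0.11, adjusted p = 6.76e-07) and 2.30 at 24 h (SE 0.11, adjusted p = 1.08e-13), while Rrp1 itself was called in no comparison. Nop2, a methyltransferase of the large-subunit RNA, rose by 2.26 at 24 h, and Rrs1, which in yeast helps to bring the 5S particle into the large subunit, by 2.01. The Rrs1 probe set is of a type that may cross-hybridise, and a second one gave rises of 0.92 at 4 h and 2.42 at 24 h.

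Rrp12, known from yeast as a factor for export of both subunits, had the largest change between the 2 activation times. It measured 5.79, 5.19 and 6.01 in C57BL/6, 6.24, 6.33 and 5.06 in B6.Sle1b, and 5.70, 6.06 and 5.62 in Sle1b.BAC unstimulated. Levels at 4 h were 5.43, 5.94 and 4.79 in C57BL/6, 5.72, 5.72 and 4.995 in B6.Sle1b, and 5.73, 3.96 and 5.06 in Sle1b.BAC, with the lowest value on the dim array. Levels at 24 h were 7.47 and 7.01 in C57BL/6, 7.50, 7.25 and 6.74 in B6.Sle1b, and 7.43, 7.33 and 7.59 in Sle1b.BAC. The 4 h arrays overlap the unstimulated ones in every strain and lie below the 24 h arrays in every strain. The difference was -0.52 at 4 h (SE 0.22, adjusted p = 0.125), and Rrp12 rose by 1.51 at 24 h (SE 0.23, adjusted p = 9.53e-06) and by 2.03 between the times (adjusted p = 1.92e-07), a 4.07-fold step. Rrp15, another large-subunit factor, rose by 1.97 at 24 h and by 1.71 between the times. Nol8 rose by 0.31 at 24 h (adjusted p = 0.0436, lost in 17 alternatives) and differed by 0.04 between the times.

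Nop53, which in yeast brings the RNA exosome to the precursor of the large subunit, fell in all 3 strains. Its unstimulated levels were 11.21, 10.60 and 11.09 in C57BL/6, 11.02, 11.40 and 10.70 in B6.Sle1b, and 11.14, 11.06 and 10.98 in Sle1b.BAC. At 4 h they were 11.02, 10.89 and 10.59 in C57BL/6, 10.80, 11.00 and 10.53 in B6.Sle1b, and 10.68, 10.40 and 10.58 in Sle1b.BAC. At 24 h they had gone down to 10.33 and 10.32 in C57BL/6, 10.14, 10.25 and 10.16 in B6.Sle1b, and 10.24, 10.27 and 10.12 in Sle1b.BAC. All 24 h arrays lie below all others. Nop53 fell by 0.30 at 4 h (SE 0.097, adjusted p = 0.0321) and by 0.79 at 24 h (SE 0.10, adjusted p = 7.9e-07), and it was called lower in all 3 strains at 24 h, as 7.63% of all genes were. Its 3 probe sets gave -0.79, -0.83 and -0.77 at 24 h.

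The 3 genes with a nucleolar name alone showed no called change. Nol3, Nol4 and Nol4l were called in no comparison of times, with differences of -0.11, 0.12 and -0.02 at 24 h. Nol3 measured 3.5002, 3.79 and 3.51 in C57BL/6, 3.55, 3.73 and 3.504 in B6.Sle1b, and 3.60, 4.04 and 3.34 in Sle1b.BAC unstimulated. It measured 3.37, 3.57 and 3.25 in C57BL/6, 3.47, 3.61 and 3.72 in B6.Sle1b, and 3.52, 3.52 and 3.30 in Sle1b.BAC at 4 h. At 24 h the values were 3.49 and 3.505 in C57BL/6, 3.49, 3.66 and 3.59 in B6.Sle1b, and 3.39, 3.45 and 3.51 in Sle1b.BAC. The times of Nol3 overlap in every strain. Nol4 was not above background in any group and Nol4l was above it in 3 of 9 groups, so for these genes the arrays give little signal. The other 41 genes were above background in all 9 groups. The members called in none of the 12 comparisons of times were therefore Polr1d, Rrp1, Nol6, Nol3, Nol4 and Nol4l.

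Agreement between probe sets of a gene was checked for the 32 further member probe sets above background. As the mean of the strains, 23 had the same call as the chosen set at 24 h and 3 had the opposite one. The opposite calls belong to Nol7, Rrp7a and Utp11, whose chosen sets rose by 0.77, 1.005 and 0.86 and whose other sets included -0.71, -0.28 and -0.31. The direction of these 3 genes at 24 h is therefore uncertain. At 4 h 21 of 32 had the same call and 0 the opposite one. These calls come from a fit over all single-symbol probe sets with its own adjustment, in which the chosen set of Utp15 was not called at 4 h.

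Strain was then compared at each time, which asks whether the Sle1b interval or the transgene alters these genes. None of the 43 members was called in any strain comparison. B6.Sle1b against C57BL/6 gave 0 members in unstimulated cells, at 4 h, at 24 h and as the mean of the times, where 0.123%, 0.0409%, 0.0409% and 0.333% of all genes were called. Sle1b.BAC against B6.Sle1b gave 0 members, against 0.0819%, 0%, 0% and 0.0819%. Sle1b.BAC against C57BL/6 gave 0 members, against 0.0585%, 0.0643%, 0.0351% and 0.228%. Few genes of any kind differed by strain, so the members' counts are near the background. At an unadjusted p under 0.05, between 0 and 7 members and between 392 and 1390 of all genes passed in these 12 comparisons. The 7 members passed for Sle1b.BAC against C57BL/6 in unstimulated cells, where 968 of 17097 genes did. The 1390 genes passed for Sle1b.BAC against B6.Sle1b in unstimulated cells, where 3 members did. With array weights, whose estimation did not converge, 11 members were called between Sle1b.BAC and B6.Sle1b in unstimulated cells and 3 between B6.Sle1b and C57BL/6. The share of all genes called with array weights is not given here. The shares above are from the main fit, so these counts cannot be set beside them. Nol8 was called between Sle1b.BAC and B6.Sle1b as the mean of the times with those weights and without the 3 dim arrays (0.44, adjusted p = 0.0437), and was not called without the 4 dimmest. The members' median strain difference lay between -0.11 and 0.05, and no difference of Dkc1 or Fbl was over 0.20 in size.

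Nol8, a factor bound to the large-subunit machinery, had the smallest unadjusted p of the strain comparisons, with a difference of 0.67 between Sle1b.BAC and B6.Sle1b at 24 h (95% interval 0.26 to 1.09, adjusted p = 0.896). Its 24 h levels were 7.94 and 7.48 in C57BL/6, 7.42, 7.28 and 7.09 in B6.Sle1b, and 7.93, 7.90 and 7.99 in Sle1b.BAC. The Sle1b.BAC and B6.Sle1b arrays do not overlap, and C57BL/6 spans the gap. The summed intensity of 6 neutrophil markers was 50.9 to 159 on C57BL/6 arrays, 80.9 to 656 on B6.Sle1b arrays and 102 to 786 on Sle1b.BAC arrays. The part of these markers in the strain comparisons was not tested.

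The response to activation was also compared between strains by an interaction term. None of the 43 members was called. For B6.Sle1b against C57BL/6 the share of all genes called was 0% at 4 h and 0% at 24 h. For Sle1b.BAC against B6.Sle1b the shares were 0% and 0.00585%, and for Sle1b.BAC against C57BL/6 they were 0% and 0%. At an unadjusted p under 0.05, 0 to 4 members and 315 to 903 of all genes passed. For Sle1b.BAC against B6.Sle1b, 4 members passed at each time, where 903 of 17097 genes did at 4 h and 873 at 24 h. Nop58 had the smallest unadjusted p among members, with a response at 4 h larger by 0.91 in Sle1b.BAC than in C57BL/6 (95% interval 0.33 to 1.49, adjusted p = 0.874). These intervals allow differences between strains of the size of the 4 h rises themselves.

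**Figure D4:**
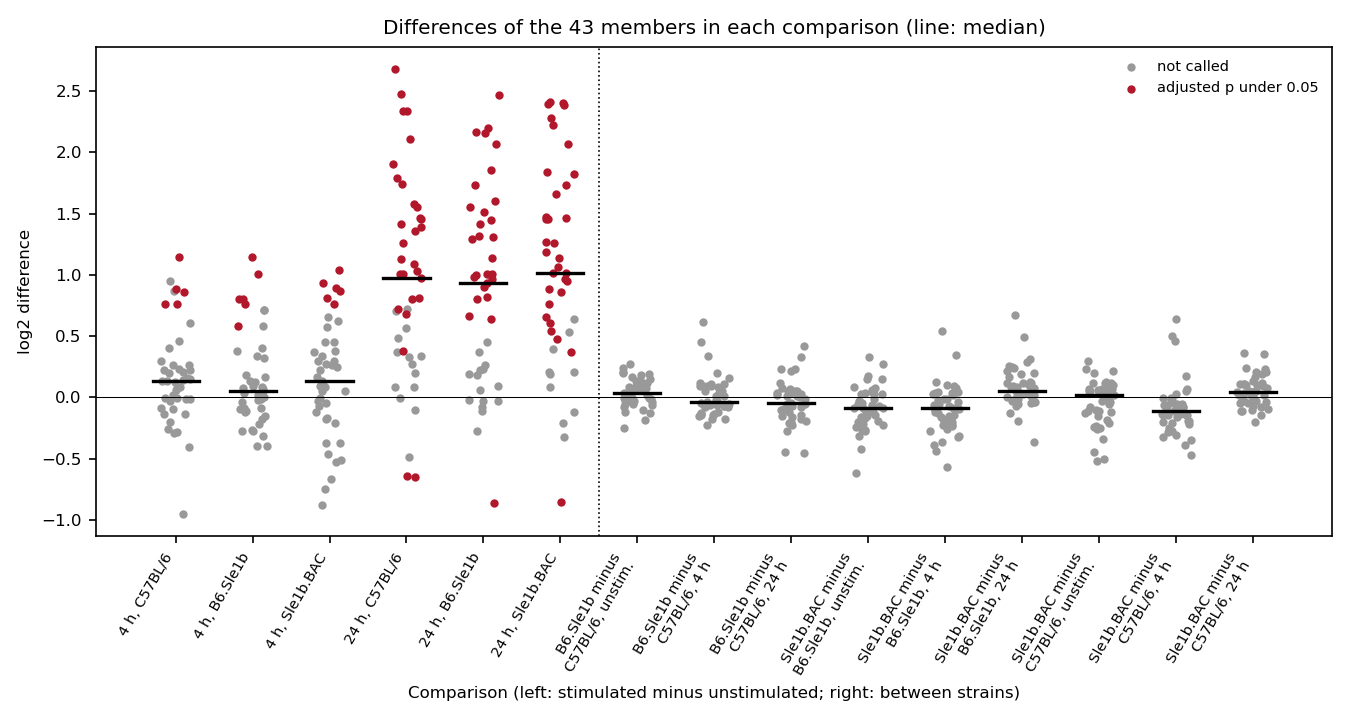
Log2 differences of the 43 factors in 6 comparisons with unstimulated cells and 9 comparisons of strains, 1 point per gene, red where the adjusted p is below 0.05, with a line at the median. The 24 h comparisons have medians near 1 and mostly red points, while the strain comparisons scatter around 0 with no red point.

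Other genes of ribosome production were counted beside the 43. Of 102 further ribosome biogenesis genes, 34 rose and 3 fell at 4 h with a median of 0.14, and 78 rose and 5 fell at 24 h with a median of 0.86. The shares of all genes were 8.15% higher and 10.1% lower at 4 h and 22.9% higher and 17.4% lower at 24 h. The 8 snoRNP assembly genes all rose at 24 h, with Gar1, a partner of Dkc1, at 2.54 and Ruvbl2, an ATPase of box C/D assembly, at 2.20. Of 34 small-subunit genes 29 rose and 1 fell, among them Nat10, an RNA acetyltransferase, at 2.00 and Bysl at 1.89, while Riok1, a kinase of the late small-subunit precursor, fell by 1.20. Of 36 large-subunit genes 26 rose and 3 fell, led by Rpf2 at 2.56 and Mrto4 at 2.39, with falls of Nsa2 by 0.44 and Rpf1 by 0.35. The fall of Nsa2 was not called with the mean of all its probe sets (adjusted p = 0.837). Of 11 RNA exosome genes 10 rose, with Dis3, a catalytic subunit, at 2.02.

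Of 13 RNA polymerase I transcription genes beyond the subunits named Polr1, 5 rose and 1 fell at 24 h, with a median of 0.25, where 22.9% and 17.4% of all genes rose and fell. Ubtf, the upstream binding factor of the ribosomal DNA promoter, rose by 1.49, and Znrd1, a small polymerase subunit, fell by 0.50. At 4 h Twistnb, the partner of Polr1e, rose by 0.72, Rpf2 by 1.30 and Noc4l, a small-subunit factor, by 1.12.

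The proteins of the ribosome itself were counted in separate lists for the cytosolic and the mitochondrial ribosome. Of 70 cytosolic ribosomal protein genes, 1 rose and 1 fell at 4 h, and 11 rose and 10 fell at 24 h, with a median of 0.00. Of 71 mitochondrial ribosomal protein genes, 18 rose and 5 fell at 4 h, and 69 rose and 0 fell at 24 h, with a median of 0.997. Of all genes, 8.15% rose and 10.1% fell at 4 h, and 22.9% rose and 17.4% fell at 24 h. The cytosolic counts lie below these shares. The 70 genes were taken by symbol and include paralogs such as Rpl7l1 and Rps27l. These had the largest rises of that list at 24 h, 1.27 and 1.14. The difference between the lists was not tested. These lists were chosen with results of these data known, and the counts describe them.

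**Figure D5:**
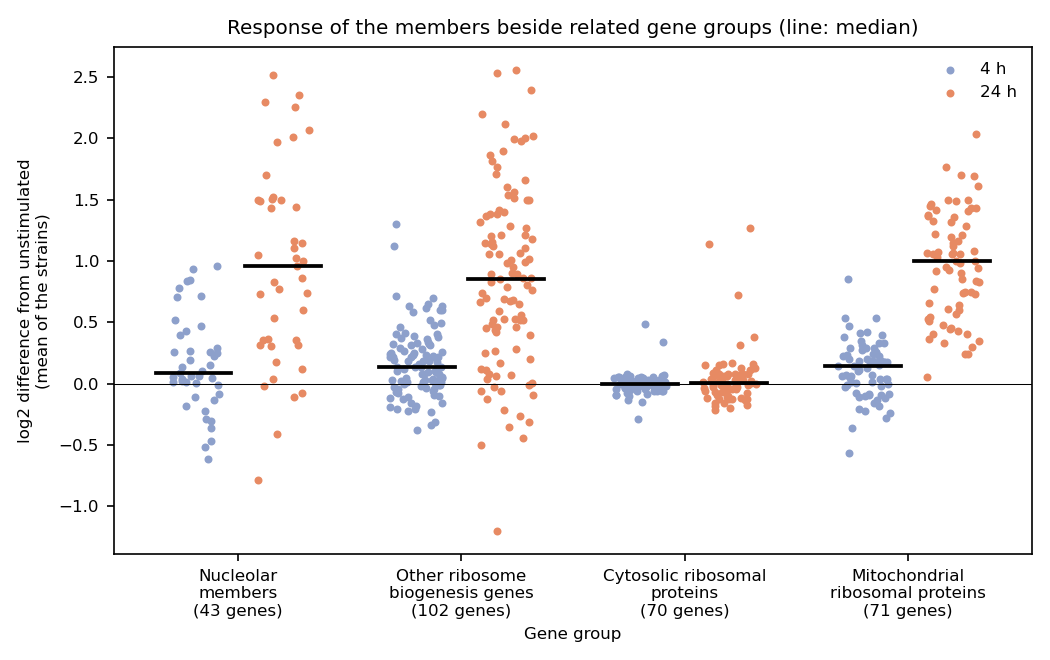
Log2 differences from unstimulated cells at 4 h and at 24 h, as the mean of the strains, for the 43 nucleolar factors, 102 other ribosome biogenesis genes, 70 cytosolic and 71 mitochondrial ribosomal protein genes, 1 point per gene with a line at the median. At 24 h the medians are 0.96, 0.86, 0.00 and 0.997 in that order.

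Within groups, most members lay on the same side of their group mean on some arrays. In C57BL/6 at 24 h, 39 of 43 members were above their group mean on the first array and 4 on the second, which mirror each other because the group has 2 arrays, and where the 75th percentiles of intensity were 46.8 and 39.5. In C57BL/6 at 4 h, 40 were above it on the second array and 10 on the third. In B6.Sle1b at 24 h, 37 were above it on the first array and 5 on the third. In B6.Sle1b at 4 h, 37 were above it on the second array and 12 on the third, and 11 on the third of unstimulated Sle1b.BAC. A few arrays were near an even split, with 22 on the first of unstimulated C57BL/6, 24 on the first of unstimulated Sle1b.BAC and 23 on the third of Sle1b.BAC at 24 h. Members on 1 array are thus not independent measurements of a condition.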

How the data were processed

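Affymetrix HT MG-430 PM arrays measured RNA in 28 samples, of which 26 titled biological were analysed. The deposited intensity values are on a linear scale and were made by RMA, per the submitters' processing notes; its version is not given in the sources used here. From them log2 was taken, the brightest single-symbol probe set was kept per gene (28898 of 45141 probe sets had 1 symbol, 551 several and 15692 none), and 1 limma model (limma 3.58.1, R 4.3.3) was fitted to the 9 groups with 30 contrasts, eBayes and Benjamini-Hochberg adjustment over 17097 genes. The model was also run on simulated data with independent noise for each gene and array. Those data hold no deviation shared between arrays or members, so the run cannot check the calls for it. Interactions compared the strains' responses.

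The members and lists were chosen with earlier results of these data known. Values on each array are given for Dkc1, Fbl and the members with the largest and smallest mean difference at 4 h and at 24 h in each role; of the genes with a nucleolar name alone they are given for Nol3, since Nol4 and Nol4l lay near background. Nolc1 and, at 24 h, Nol8 were added after their values were seen. Of each further list, genes were taken from the largest called rises and falls. Alternatives covered the scaling, probe set, filter, brightness, array weights, variance model, technical arrays, replicate block, single arrays and dim arrays. Replicate numbers did not pair arrays across strains. Within a strain, deviations of same-numbered arrays correlated over 0.1 in every pair in B6.Sle1b (0.144 to 0.734, 9 pairs), and not in C57BL/6 (-0.286 to 0.816) or Sle1b.BAC (-0.358 to 0.466). That pairing comes from the data, not the labels, and blocks within a strain were added as alternatives. Mean erythroid marker levels followed the replicate number in the other strains as well. In C57BL/6 they were 6.59, 6.33 and 5.57 unstimulated and 6.51, 6.20 and 5.92 at 4 h. In Sle1b.BAC they were 5.49, 6.43 and 6.30, then 5.37, 6.36 and 6.31. Same-numbered arrays of a strain may thus not be independent, and the main fit held no block. The number of arrays limits the precision, and counting intervals on promoters cover counting error only.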

Additional observations from a re-analysis of the deposited data

How the results depend on the processing

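The number of members that rose at 24 h against unstimulated cells stayed within 1.5 times of the reported count under every alternative run, in each strain and as the mean. Nol4 and Nol4l lay at or near background, which limits what the arrays show of them. Where values below differ from the report, the cause was not tested.

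At 4 h, members called higher in C57BL/6 numbered 8 after a further quantile normalization, 3 with median centring, 9 with array brightness in the model, 14 when arrays were weighted and 2 with only the groups compared. In B6.Sle1b they numbered 10 with brightness, 12 with array weights and 3 with only the groups compared, and in Sle1b.BAC 15 after quantile normalization and 11 with brightness. Over all genes, the count in C57BL/6 was 697 in the main fit, 955 after quantile normalization, 523 with median centring and 1521 with brightness. It went from 440 to 1028 with brightness in B6.Sle1b. In Sle1b.BAC it was 722 in the main fit, 1034 after quantile normalization and 1161 with brightness. Counts over all genes under the other alternatives are not given here. The estimation of array weights stopped before it converged. Members called lower at 4 h in C57BL/6 numbered 2 with brightness or array weights and 1 after quantile normalization, with genes above background only, with the replicate block and without the 3 or the 4 dimmest arrays. In B6.Sle1b they numbered 4 with array weights and 1 without the 3 or the 4. In Sle1b.BAC they numbered 2 after quantile normalization, 3 with brightness, and 1 with genes above background only, trended and robust eBayes, only the groups compared, all 28 arrays, averaged technical arrays or the replicate block. As the mean of the strains they numbered 6 with brightness or array weights and 8 without the 3 or the 4 dimmest arrays. Members higher at 4 h in C57BL/6 numbered 8 without the 4.

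At 24 h, members called lower in C57BL/6 numbered 1 after quantile normalization, median centring or without the 3 or the 4 dimmest arrays, and 0 with only the groups compared. They numbered 2 with brightness in B6.Sle1b, 2 with brightness or array weights in Sle1b.BAC, and 1 after quantile normalization as the mean of the strains. With the mean of all probe sets the median difference was 0.72 for C57BL/6, 0.71 for B6.Sle1b, 0.79 for Sle1b.BAC and 0.73 as the mean. That setting also turned Polr1d at 24 h to 0.39 in C57BL/6 and 0.46 in B6.Sle1b, and Nol7 in B6.Sle1b to -0.033. Between 4 h and 24 h, members called lower in C57BL/6 numbered 2 with brightness and 1 with array weights, trended eBayes, all 28 arrays, averaged technical arrays, the replicate block or without the 3 or the 4 dimmest arrays. They numbered 1 in Sle1b.BAC with brightness or without the 3 or the 4, and 2 as the mean with brightness.

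With array weights 3 members were called between B6.Sle1b and C57BL/6 unstimulated (Nol8, Polr1a and Rrp15), 11 between Sle1b.BAC and B6.Sle1b unstimulated, 1 (Nol8) between them as the mean of the times, 2 in the 4 h response of B6.Sle1b against C57BL/6 and 2 in the 24 h response of Sle1b.BAC against B6.Sle1b. The shares of all genes called with array weights are not given here, so these counts have no background. Without the 3 dim arrays Nol8 was also called as the mean of the times, with 0.44 and limma adjusted p = 0.0437, and it was not called without the 4 dimmest. CACGCG was in 15.2% of member promoters before the start.

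Leaving out single arrays gave 2 to 8 members higher and 0 to 1 lower at 4 h in C57BL/6, with 2 without its second 4 h array, 3 without its second unstimulated array, and 8 without its 4 h array number 3 or without the second 4 h array of Sle1b.BAC. It gave 0 to 5 lower at 4 h in Sle1b.BAC, with 5 without its first 4 h array, and 2 to 6 lower as the mean of the strains. Without the first C57BL/6 array of 24 h, its 24 h median was 0.78 in a range up to 1.03, its members called lower at 24 h 0 in a range up to 2, and its members higher than at 4 h 16 in a range up to 28. Members lower than at 4 h ranged from 0 to 1 in C57BL/6 and in B6.Sle1b.

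Across strains the replicate numbers did not pair the arrays. The median correlation of deviations was 0.06 for the same number and -0.03 for different numbers, and 12 of 26 arrays correlated best with their own number. The replicate block gave 7, 6 and 8 members higher at 4 h in the strains in that order. Within a strain, same-numbered arrays deviated together in every pair of B6.Sle1b, but not in every pair of the other strains. Erythroid marker levels followed the number in those strains too, between unstimulated cells and 4 h. A replicate block within each strain, fixed or random and added after the data were seen, gave 8 members higher at 4 h in C57BL/6, 1 lower at 4 h in C57BL/6 (Polr1a) and in Sle1b.BAC (Nop53), 5 lower at 4 h as the mean of the strains, and 1 lower at 24 h than at 4 h in C57BL/6. No other count of members called moved by more than 1.5 times with it.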

Other observations

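The 2 further arrays of C57BL/6 at 24 h, titled technical, entered no comparison of the report. The members' median log2 level was 8.16 on the first and 7.89 on the second, and their 75th percentiles of intensity were 49.2 and 43.5. Dkc1 measured 10.27 and 10.08 on them, Fbl 10.90 and 10.65, and Nop53 10.40 and 10.33, each beside the 24 h arrays titled biological.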
